A study of Mus musculus with 4 samples.

Results

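Tumour necrosis factor (TNF) and the genes that its signal switches on and that then restrain it or act after it were followed in bone cells of mice after hindlimb unloading (HLU). The 10 genes, chosen by their symbols among the 31053 genes of the matrices, were Tnf, Il6, Nfkbia, Nfkbiz, Tnfaip3, Tnip3, Zfp36, Ptgs2, Tnfaip2 and Tnfaip6. The study profiled single cells from tibia and femur of C57BL/6J mice, all wild-type, with the 10x Genomics 3′ kit, after the marrow had been flushed out and the remaining tissue digested with enzymes. The Ctrl group was 2 mice with no treatment and the HLU group was 2 mice suspended by the tail for 28 days, with 1 library per mouse. No transgene or mutation was involved in either group. For the age the sources differ. The study's methods give 8 weeks, for the mice before the 28 days of suspension, and the description of the series gives postnatal day 28. Flushing removes most of the marrow, so the blood cells measured here are those that stayed in the bone.

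TNF is a cytokine that binds receptors on most cells and sets free the transcription factor NF-kB, which moves to the nucleus and switches on inflammatory genes. Some of those genes encode the brakes of the same pathway: Nfkbia encodes IκBα, which binds NF-kB and takes it back out of the nucleus, Tnfaip3 encodes A20, which edits the ubiquitin chains that carry the receptor's signal, Tnip3 encodes a partner of A20, and Zfp36 encodes tristetraprolin, which binds AU-rich stretches in the Tnf mRNA and has it degraded. In bone, TNF is known to favour the formation of osteoclasts, and monocytes, macrophages and neutrophils are among the cells that make it.

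Binding sites of NF-kB near a gene's start are a hallmark of these targets, so the start regions of the mouse genes were searched for the NF-kB consensus on both strands. Of the 9 genes present in the RefSeq promoter table (GRCm38.p6, 250 bases before to 50 bases after the start), 4 held a match, and 4.51% of all 32851 windows did. The windows of Il6, Nfkbia and Tnfaip3 are shown because they carry matches for a cytokine and for both of the best known brakes, with the matching bases in capitals.
Il6 (chr5:30012864-30013163, plus strand): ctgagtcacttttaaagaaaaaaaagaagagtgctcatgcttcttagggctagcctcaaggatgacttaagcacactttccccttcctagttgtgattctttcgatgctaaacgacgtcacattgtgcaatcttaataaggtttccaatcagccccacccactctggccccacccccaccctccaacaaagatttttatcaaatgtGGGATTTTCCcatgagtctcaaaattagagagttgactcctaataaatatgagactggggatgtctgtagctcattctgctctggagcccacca
Nfkbia (chr12:55492598-55492897, minus strand): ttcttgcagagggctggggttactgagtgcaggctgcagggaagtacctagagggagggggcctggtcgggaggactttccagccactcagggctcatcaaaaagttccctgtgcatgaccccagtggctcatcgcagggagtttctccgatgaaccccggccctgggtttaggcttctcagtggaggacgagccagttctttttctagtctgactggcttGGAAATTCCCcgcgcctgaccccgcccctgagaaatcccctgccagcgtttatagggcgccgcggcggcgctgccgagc
Tnfaip3 (chr10:19015361-19015660, minus strand): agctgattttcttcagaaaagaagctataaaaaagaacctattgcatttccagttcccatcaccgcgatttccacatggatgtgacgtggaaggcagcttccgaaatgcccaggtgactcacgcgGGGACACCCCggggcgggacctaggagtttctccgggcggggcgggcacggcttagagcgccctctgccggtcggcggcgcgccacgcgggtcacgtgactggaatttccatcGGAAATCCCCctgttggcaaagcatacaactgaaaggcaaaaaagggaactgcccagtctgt
The match lay 44 bases before the start of Il6, 29 bases before that of Nfkbia, and 125 and 12 bases before that of Tnfaip3. Tnip3 held a match 54 bases before its start. The windows of Tnf, Tnfaip2, Tnfaip6, Zfp36 and Ptgs2 held none, which says only that these letters do not occur in these windows.

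Tristetraprolin recognises the nonamer TTATTTATT and its matches in the 3′ untranslated regions of the GENCODE M21 annotation (GRCm38) were counted on the transcript strand. The nonamer occurred in 5 of the 10 genes, against 7.66% of 21025 genes with such a region. Tnf held 5 copies and Tnfaip3, Nfkbia, Zfp36 and Ptgs2 held 1 each, so Zfp36 carries the motif that its own protein binds. For each gene 30 bases are printed with the nonamers in capitals, because this is the sequence through which tristetraprolin is best known to act; the window of Tnf holds 4 of its 5 copies.
Tnf (chr17:35199679-35199708, minus strand): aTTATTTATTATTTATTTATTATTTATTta
Tnfaip3 (chr10:19001754-19001783, minus strand): tTTATTTATTatgaacttccaagttattta
Nfkbia (chr12:55489618-55489647, minus strand): acctaatgaaaggaccacgttTTATTTATT
Zfp36 (chr7:28376961-28376990, minus strand): ggccctttatttatgacgactTTATTTATT
Ptgs2 (chr1:150105794-150105823, plus strand): ccatatTTATTTATTtatgtgaagaattta
Il6, Nfkbiz, Tnfaip2, Tnfaip6 and Tnip3 held no copy of this nonamer. Tristetraprolin also binds other AU-rich stretches, and the shorter pentamer ATTTA occurred 10 times in Il6, 6 times in Tnfaip6 and at least 2 times in each of the other members. A match is a description of the sequence and no measurement of binding.

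Barcodes with 1000 to 40000 unique molecular identifiers (UMIs, 1 per captured transcript molecule) and at most 10% mitochondrial UMIs were kept, 7340 and 7635 from Ctrl mice, 7757 and 9485 from HLU mice. Clusters were formed on genes other than the 10 studied here and named from marker genes, and a class name below means only that the cells resemble that type in its markers. HLU replicate 2 stood apart: it held 99849070 UMIs in all, against 47819046 to 61296053 in the other 3 libraries, and in each of the 10 classes compared its summed share of 12 genes induced by handling and dissociation was the lowest of the 4. Pairs of libraries shared 13 to 21 of their kept barcodes. The 10 classes with at least 20 cells in each library were compared, and several results that rest on HLU replicate 2 are given with and without it. Where no value without it is given, that does not mean that the result holds in HLU replicate 1 alone. Chondrocytes, osteoblasts and mesenchymal stromal cells numbered 285 to 1801 per class in the Ctrl libraries and 29 to 85 in the HLU libraries, so their HLU values rest on few cells.

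Over all cells, putative doublets left out, Tnf made up 10.7 and 17.9 CPM (counts scaled to a total of 1000000 UMIs) in Ctrl replicates 1 and 2 and 30 and 106 CPM in HLU replicates 1 and 2. Both HLU libraries were thus above both Ctrl libraries, with HLU replicate 2 far above the rest. The cell classes also had other shares in HLU bones, and when each library was given the mean class shares of the Ctrl libraries, the levels became 12.4 and 16.1 CPM in Ctrl and 17.5 and 69.3 CPM in HLU. At fixed shares HLU replicate 1 therefore lay close to the Ctrl libraries, and only HLU replicate 2 remained far above them. This calculation was chosen after the data had been seen. Its shares are those of UMIs, and the skeletal classes weigh more at Ctrl shares. In HLU replicates 1 and 2 they held few Tnf UMIs. There were 5 and 38 in chondrocytes, 1 and 22 in osteoblasts and 2 and 21 in mesenchymal stromal cells. With the shares of single clusters held fixed in the same way, the HLU levels were 16.2 and 64.4 CPM.

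**Figure D1:**
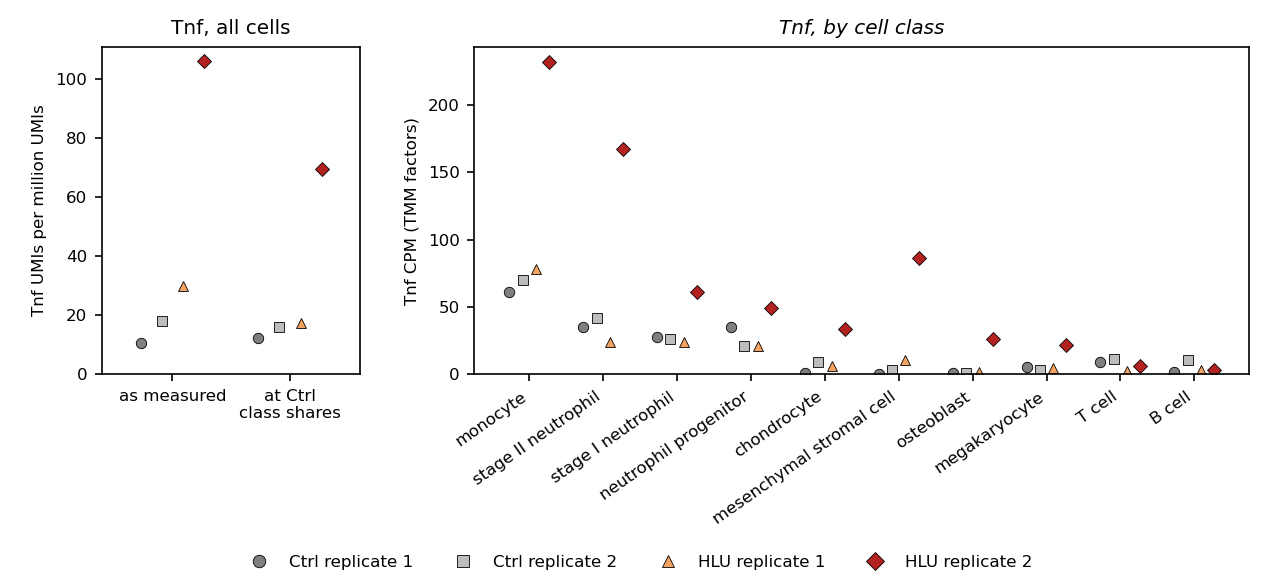
Tnf level in CPM (linear axes) of each library. The left panel shows all cells, as measured and at the Ctrl class shares, and the right panel shows the cell classes. Each point is 1 library. HLU replicate 2 is the highest point in monocytes, stage II and stage I neutrophils, and HLU replicate 1 falls from 30 to 17.5 CPM at the Ctrl class shares.

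In monocytes, the class from which osteoclasts derive, Tnf was measured at 61.4 and 69.8 CPM in Ctrl mice, and the HLU mice had 78.3 and 232 CPM (CPM within a class use TMM-scaled library sizes). The groups did not overlap, but HLU replicate 1 exceeded the higher Ctrl library by little and HLU replicate 2 by a wide margin. The log2 fold change of HLU over Ctrl was 1.24 ± 0.53 (SE, n = 2 against 2), and it did not pass edgeR's quasi-likelihood test (adjusted p = 0.793). Without HLU replicate 2 it was 0.28 and without HLU replicate 1 it was 1.82, so the size of the difference was set by 1 library. With an HLU library left out, the other one stands alone, only the Ctrl pair gives the spread, and the lone library is assumed to vary like that pair. Many genes pass in such fits: without HLU replicate 1 it was 31.1% of all genes in monocytes, 46.5% in stage II and 31.3% in stage I neutrophils, and without HLU replicate 2 it was 1.82%, 7.85% and 4.25%. Log2 fold changes with a library left out are therefore given below as values, and no call is read from them.

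In stage II neutrophils, the mature class with Cxcr2 and Csf3r among its markers, Tnf was measured at 35.2 and 41.6 CPM in Ctrl and at 24.1 and 167 CPM in HLU. Here HLU replicate 1 was the lowest and HLU replicate 2 the highest of the 4, so the groups overlapped. The log2 fold change was 1.32 ± 0.83 (SE, edgeR adjusted p = 0.608). It turned to -0.65 without HLU replicate 2 and was 2.12 without HLU replicate 1. The markers of other classes were also highest in HLU replicate 2: in stage II cells the 6 monocyte markers made up 0.0379% of its UMIs against 0.00747% to 0.0127% in the other 3 libraries, the 6 macrophage markers 0.0196% against 0.00181% to 0.0032%, and the 5 stage I markers 0.827% against 0.254% to 0.335%. Their part in the Tnf level of stage II neutrophils was not tested.

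Stage I neutrophils, which hold the granule genes Ltf and Camp, had Tnf at 28.0 and 26.6 CPM in Ctrl and at 24.3 and 60.9 CPM in HLU. Neutrophil progenitors, with Elane and Mpo, had 35.4 and 21.4 CPM in Ctrl and 20.9 and 49.1 CPM in HLU. The order was the same as in stage II cells in both classes, with HLU replicate 1 lowest and HLU replicate 2 highest. The log2 fold changes were 0.64 ± 0.44 (SE, edgeR adjusted p = 0.619) and 0.32 ± 0.49 (SE, edgeR adjusted p = 0.879), and without HLU replicate 2 they were -0.21 and -0.43. In HLU replicate 2, but not in HLU replicate 1, the 6 monocyte markers were high along with Tnf: their summed share of UMIs in stage I neutrophils was 0.0189%, 0.0205% and 0.0291% in the other 3 libraries and 0.22% in HLU replicate 2, and in neutrophil progenitors it was 0.0855% to 0.142% in the others and 0.668% in HLU replicate 2. HLU replicate 1 had the highest of the other 3 shares in both classes, at 0.0291% and 0.142%, and the lowest Tnf level. The part of such RNA in the Tnf level was not tested.

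The share of cells with Tnf transcripts showed the same library apart. After every cell had been thinned to 2000 UMIs, Tnf was seen in 8.82% (exact 95% interval 5.02% to 14.1%) and 5.61% (3.24% to 8.96%) of Ctrl monocytes and in 11.2% (7.99% to 15.1%) and 28.8% (26% to 31.8%) of HLU monocytes. The intervals of HLU replicate 1 overlapped those of both Ctrl libraries, and that of HLU replicate 2 lay above the others. Without thinning the shares were 24.7% and 21.7% in Ctrl, against 26.4% and 69.3% in HLU. Thinned stage II neutrophils held Tnf in 5.26% and 5.65% of Ctrl cells and in 5.17% and 19.7% of HLU cells (4.73%, 7.36%, 5.27% and 32.2% without thinning). In B cells, which held few Tnf UMIs, the thinned shares were 0.735% and 2.77% in Ctrl and 0.555% and 1.08% in HLU. All lay below those of monocytes and stage II neutrophils. Cells with fewer than 2000 UMIs had to be left out, 4 to 38 monocytes and 155 to 888 stage II neutrophils per library, and the intervals cover counting error only. In Ctrl replicate 1 this kept 380 of 1014 stage II neutrophils. The median of the class was 1809.5 and 2361 UMIs in Ctrl and 2138 and 3847.5 UMIs in HLU. Thinned values of stage II neutrophils, here and below, thus describe the deeper cells, a part of the class that differed between libraries.

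Among the classes compared, monocytes had the highest Tnf level in each of the 4 libraries, and stage II neutrophils came next in Ctrl replicate 2 and HLU replicate 2. Clusters that stayed unnamed are not among these classes and held 14.6% to 24.5% of a library's Tnf UMIs. Without TMM scaling, the unnamed cluster led by Clec4n and Pdcd1lg2 exceeded monocytes in Ctrl replicate 2 (74.68 against 71.35 CPM) and HLU replicate 2 (350.9 against 223.6 CPM). It lay below monocytes in Ctrl replicate 1 and HLU replicate 1. Stage II neutrophils, stage I neutrophils and neutrophil progenitors, at 20.9 to 49.1 CPM apart from the 167 CPM and 60.9 CPM of HLU replicate 2, did not keep a fixed order among themselves. B cells held 1 to 12 Tnf UMIs per library, T cells 1 to 6 and megakaryocytes 1 to 13, and Tnf did not pass the filter on low counts in any of these 3 classes. Macrophages, too few for a test with 1 to 54 cells per library, held 22 Tnf UMIs in 6 cells of Ctrl replicate 2 and 195 in 54 cells of HLU replicate 2, or 480 and 692 CPM without TMM scaling. In the 4 macrophages of Ctrl replicate 1 and the 1 of HLU replicate 1 no Tnf UMI was seen, which allows up to 136 and 214 CPM.

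No member of the family passed the test in any of the 10 classes (edgeR, adjusted p under 0.05). That count of 0 stands beside 0.0418% of all tested genes in monocytes, 2.60% in stage II neutrophils, 1.73% in stage I neutrophils, 0.259% in neutrophil progenitors, 1.17% in osteoblasts, 1.52% in mesenchymal stromal cells, 0.0899% in chondrocytes, 0.663% in B cells, 0.266% in T cells and 0.345% in megakaryocytes. At an unadjusted p under 0.05, 3 members passed in mesenchymal stromal cells, 2 each in monocytes, stage I neutrophils and osteoblasts, 1 each in stage II neutrophils, neutrophil progenitors and chondrocytes, and 0 in the other classes. The same p was reached by 18.9% of all genes in mesenchymal stromal cells, 5.28% in monocytes, 10.4% in stage I neutrophils, 21.7% in osteoblasts, 9.83% in stage II neutrophils, 4.83% in neutrophil progenitors and 17.1% in chondrocytes, so that the counts in osteoblasts, stage II neutrophils and chondrocytes were near this background. With DESeq2 (adjusted p under 0.05), 3 members were called in osteoblasts, where 5.55% of the genes with an adjusted p were. DESeq2 called 1 member each in stage I neutrophils (2.01% of genes), neutrophil progenitors (1.07%), mesenchymal stromal cells (3.84%) and chondrocytes (4.08%). The filter on low counts let 10 members into the test in monocytes, 9 each in stage I neutrophils, neutrophil progenitors, mesenchymal stromal cells and chondrocytes, 8 each in stage II neutrophils and osteoblasts, 6 in B cells, 5 in megakaryocytes and 4 in T cells. Whether the libraries of the 2 groups overlapped is therefore the finer description, and it is read against the share of all genes that did not.

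In monocytes 3 of the 10 members were higher in both HLU libraries than in both Ctrl libraries, where 17.5% of all genes were, and 3 were lower, where 20.4% of all genes were. Of these, Tnip3 (higher) and Nfkbia (lower) separated by a narrow margin and overlapped without TMM scaling. In stage II neutrophils 1 of 8 was higher (21.0% of all genes) and 3 were lower (23.4%). In stage I neutrophils 1 of 9 was higher (22.8%) and 5 were lower (21.2%), and in neutrophil progenitors 1 of 9 was higher (20.2%) and 3 were lower (17.0%). The members did not move together in the direction of Tnf: their median log2 fold change was 0.20 in monocytes, -0.06 in stage II neutrophils, -0.52 in stage I neutrophils and 0.11 in neutrophil progenitors, beside medians over all genes of 0.01, 0.03, 0.04 and 0.06.

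**Figure D2:**
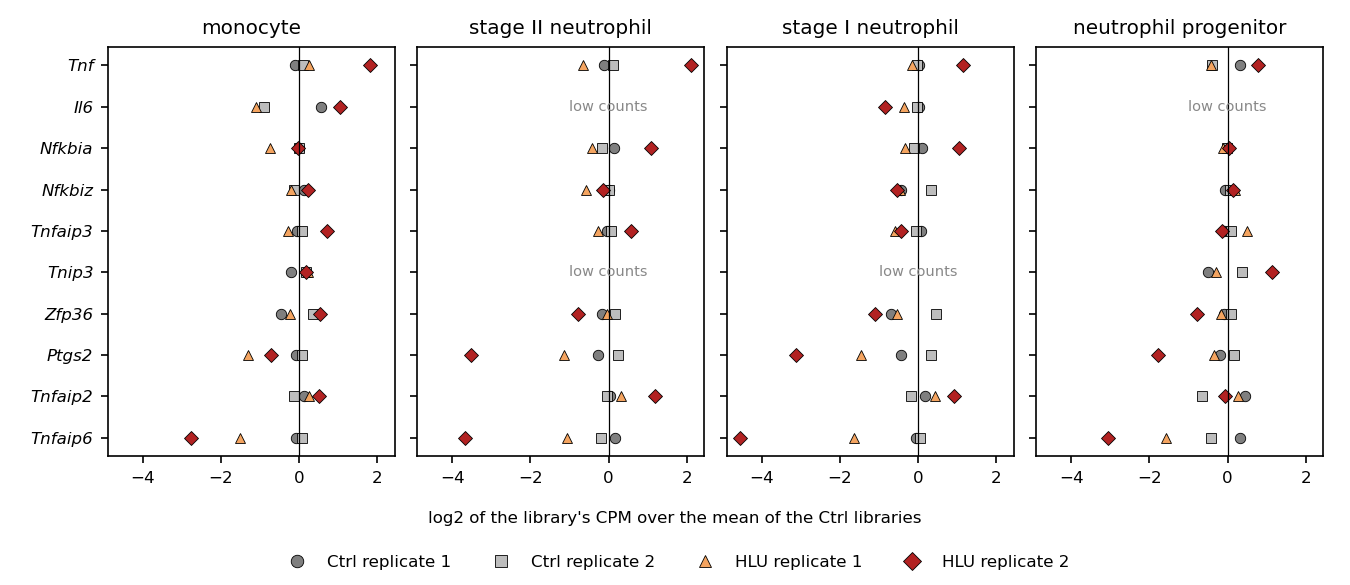
Level of each of the 10 genes in each library, as log2 over the mean of the Ctrl libraries, in monocytes, stage II neutrophils, stage I neutrophils and neutrophil progenitors; each point is 1 library, and genes that did not pass the filter are marked as low counts. The HLU replicate 2 points of Tnf lie above 0 in all 4 panels, while those of Tnfaip6 and Ptgs2 lie below 0 in both HLU libraries.

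Nfkbia, the feedback inhibitor closest to NF-kB itself, was measured in monocytes at 1067 and 1071 CPM in Ctrl and at 635 and 1056 CPM in HLU. Neither HLU library was above a Ctrl library, and HLU replicate 1 was clearly lowest. HLU replicate 2 was only slightly below the Ctrl libraries, and without TMM scaling the groups overlapped. The log2 fold change was -0.34 ± 0.37 (SE, edgeR adjusted p = 0.838). Counted per Tnf UMI, monocytes held 17.4 and 15.4 Nfkbia UMIs in Ctrl, against 8.11 and 4.55 in HLU. The ratio was thus lower in both HLU libraries, including the one whose Nfkbia level was close to that of the Ctrl libraries. It divides by Tnf, which was higher in both HLU libraries, so it falls even where the Nfkbia level stays. The ratio is therefore no separate evidence on Nfkbia.

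Nfkbia in stage II neutrophils was measured at 970 and 787 CPM in Ctrl and at 654 and 1871 CPM in HLU. It followed the order of Tnf there, with HLU replicate 1 lowest and HLU replicate 2 highest. The log2 fold change was 0.52 ± 0.57 (SE, edgeR adjusted p = 0.744), with -0.39 without HLU replicate 2 and 1.09 without HLU replicate 1, and the marker shares given for Tnf belong to the same cells. Stage I neutrophils showed the same order at 472 and 412 CPM in Ctrl and 352 and 910 CPM in HLU, with a log2 fold change of 0.51 ± 0.47 (SE, edgeR adjusted p = 0.709). Neutrophil progenitors differed little among the 4 libraries, at 773 and 748 CPM in Ctrl and 708 and 783 CPM in HLU, with a log2 fold change of -0.03 ± 0.28 (SE, edgeR adjusted p = 0.987).

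Tnfaip3, which encodes A20, was measured in monocytes at 90.9 and 99.2 CPM in Ctrl and at 77.6 and 156 CPM in HLU. HLU replicate 1 was lowest and HLU replicate 2 highest, and the log2 fold change was 0.30 ± 0.39 (SE, edgeR adjusted p = 0.86). Without HLU replicate 2 it was -0.27, and without HLU replicate 1 it was 0.72. Per Tnf UMI, Tnfaip3 UMIs numbered 1.48 and 1.42 in monocytes of Ctrl mice, against 0.991 and 0.673 in those of HLU mice, lower in both HLU libraries. This ratio also divides by Tnf, and it was lowest in HLU replicate 2, where the Tnfaip3 level was highest. Stage II levels were 94.7 and 102 CPM in Ctrl and 80.8 and 147 CPM in HLU, again with the HLU libraries on either side of the Ctrl libraries (a log2 fold change of 0.22 ± 0.40, SE, edgeR adjusted p = 0.86). In stage I neutrophils both HLU libraries were lower, with 27.1 and 24.7 CPM in Ctrl against 17.1 and 19.0 CPM in HLU (a log2 fold change of -0.52 ± 0.29, SE, edgeR adjusted p = 0.566). Within single clusters this separation was not seen: in all 5 clusters of stage I neutrophils with at least 10 cells in each library the groups overlapped. This view by cluster was added after the data had been seen. Neutrophil progenitors had 19.1 and 21.9 CPM in Ctrl and 29.4 and 18.6 CPM in HLU, which overlapped (0.22 ± 0.35, SE, edgeR adjusted p = 0.885).

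Nfkbiz encodes IκBζ, a nuclear relative of IκBα that helps NF-kB to switch on some secondary genes. In monocytes it was measured at 169 and 143 CPM in Ctrl and at 136 and 184 CPM in HLU, which overlapped (a log2 fold change of 0.04 ± 0.30, SE, edgeR adjusted p = 0.977). Stage II neutrophils had 344 and 345 CPM in Ctrl and 229 and 314 CPM in HLU, lower in both HLU libraries but by a log2 fold change of only -0.35 ± 0.36 (SE, edgeR adjusted p = 0.734). Stage I neutrophils were also lower in both HLU libraries, at 65.8 and 114 CPM in Ctrl and 64.9 and 61.7 CPM in HLU (-0.51 ± 0.35, SE, edgeR adjusted p = 0.622), with the nearest HLU library less than 1 CPM below the nearest Ctrl library. Within the 5 clusters of the stage I class, Nfkbiz was higher in both HLU libraries in 2, lower in 0 and overlapped in 3, so the class level did not hold cluster by cluster. In neutrophil progenitors Nfkbiz was at 31.9 and 34.7 CPM in Ctrl and at 38.0 and 36.4 CPM in HLU (0.16 ± 0.29, SE, edgeR adjusted p = 0.898). None of these differences in Nfkbiz passed the test.

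Tnip3 was measured in monocytes at 71.8 and 93.4 CPM in Ctrl and at 96.3 and 93.5 CPM in HLU. Both HLU libraries were above both Ctrl libraries only in the sense that the lower of them exceeded Ctrl replicate 2 by a fraction of 1 CPM, and the log2 fold change was 0.20 ± 0.28 (SE, edgeR adjusted p = 0.868). Neutrophil progenitors held it at 6.77 and 12.8 CPM in Ctrl and at 7.88 and 22.3 CPM in HLU (a log2 fold change of 0.62 ± 0.59, SE, edgeR adjusted p = 0.833). Stage I and stage II neutrophils held 1 to 15 Tnip3 UMIs per library and it was not tested there. Monocytes gave 33.4% to 49.5% of all Tnip3 UMIs of a library, and unnamed clusters gave 37.8% to 42.6%, more than monocytes in Ctrl replicate 2 and HLU replicate 2. The highest single level was in megakaryocytes of HLU replicate 2, at 158 CPM from 94 UMIs, against 0, 6 and 10 UMIs in Ctrl replicates 1 and 2 and HLU replicate 1, and Tnip3 did not pass the filter there.

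Zfp36 was measured in monocytes at 158 and 279 CPM in Ctrl and at 184 and 318 CPM in HLU, so replicates of 1 group differed more than the groups did (a log2 fold change of 0.20 ± 0.43, SE, edgeR adjusted p = 0.918). Mature (stage II) neutrophils had it at 679 and 854 CPM in Ctrl and at 750 and 446 CPM in HLU (-0.36 ± 0.43, SE, edgeR adjusted p = 0.773). Here HLU replicate 2, with the highest Tnf level, had the lowest Zfp36 level. The same library was lowest in stage I neutrophils, at 104 CPM against 154 CPM in HLU replicate 1 and 139 and 309 CPM in Ctrl (-0.80 ± 0.45, SE, edgeR adjusted p = 0.566). It was also lowest in neutrophil progenitors, at 40.8 CPM against 62.3 CPM in HLU replicate 1 and 66.1 and 75.0 CPM in Ctrl (-0.46 ± 0.33, SE, edgeR adjusted p = 0.831). In stage II neutrophils the dissociation genes were also lowest in HLU replicate 2. They made up 0.459% and 0.464% of UMIs in Ctrl and 0.351% and 0.158% in HLU. Their share in HLU replicate 1 was below both Ctrl libraries, whereas Zfp36 there lay between them. Their part in the Zfp36 level was not tested.

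Tnfaip2 is a gene induced by TNF whose protein shapes extensions of the cell membrane. Among the myeloid classes it was the member that most often lay above Ctrl in both HLU libraries. In monocytes it was measured at 314 and 260 CPM in Ctrl and at 340 and 407 CPM in HLU (a log2 fold change of 0.38 ± 0.30, SE, edgeR adjusted p = 0.799). Stage II neutrophils had it at 180 and 170 CPM in Ctrl and at 218 and 397 CPM in HLU (0.81 ± 0.42, SE, edgeR adjusted p = 0.556). In stage I neutrophils the levels were 98.6 and 77.1 CPM in Ctrl and 119 and 166 CPM in HLU (0.70 ± 0.33, SE, edgeR adjusted p = 0.507). The groups did not overlap in these 3 classes, and without HLU replicate 2 the log2 fold changes kept their sign at 0.27, 0.35 and 0.40, short of the threshold. Neutrophil progenitors, at 157 and 72.1 CPM in Ctrl and 138 and 109 CPM in HLU, overlapped (0.11 ± 0.43, SE, edgeR adjusted p = 0.958).

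Tnfaip6 and Ptgs2 went the other way in the myeloid classes. Tnfaip6 encodes TSG-6, a secreted protein that binds hyaluronan and dampens inflammation. In stage I neutrophils it was measured at 113 and 120 CPM in Ctrl and at 36.8 and 4.47 CPM in HLU, and in stage II neutrophils at 100 and 76.9 CPM in Ctrl and at 41.8 and 6.44 CPM in HLU. Both HLU libraries were below both Ctrl libraries in each class, and HLU replicate 2 was lowest. The log2 fold changes were -2.50 ± 0.81 (SE, edgeR adjusted p = 0.349) and -1.88 ± 0.81 (SE, edgeR adjusted p = 0.519). Without HLU replicate 2 they were -1.71 and -1.04, and without HLU replicate 1 they were -4.70 and -3.76, so the direction did not rest on 1 HLU library while the size did. In both classes the HLU libraries lay further from each other than the Ctrl libraries did. A cluster among the stage I cells was led by Ldhc and Tnfaip6 and held 191, 304 and 261 cells in the other libraries but 20 in HLU replicate 2. Its leading genes also held Hspa1b, a dissociation gene. Without that cluster, an alternative chosen after the data had been seen, the stage I log2 fold change was -2.45. Tnfaip6 was lower in both HLU libraries in 3 of 3 clusters of stage II neutrophils and in 3 of 5 of stage I neutrophils, and overlapped in the other 2.

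Tnfaip6 was lower in both HLU libraries than in both Ctrl libraries in all 7 of the monocyte, neutrophil and skeletal classes. In each single class 17.0% to 29.2% of all genes were. The share of genes lower in all 7 was not counted, and the classes come from the same 4 libraries. In monocytes it was measured at 10.4 and 11.5 CPM in Ctrl and at 3.51 and 1.17 CPM in HLU (a log2 fold change of -2.33 ± 0.63, SE, edgeR adjusted p = 0.696). In neutrophil progenitors it was at 31.5 and 18.4 CPM in Ctrl and at 8.03 and 2.52 CPM in HLU (-2.29 ± 0.62, SE, edgeR adjusted p = 0.568). The skeletal classes also made the gene, with 60.3 and 65.0 CPM in Ctrl osteoblasts against 30.6 and 16.8 CPM in HLU (-1.45 ± 0.32, SE, edgeR adjusted p = 0.088). Chondrocytes had 28.8 and 20.8 CPM in Ctrl against 5.11 and 6.26 CPM in HLU, the latter from 4 and 7 UMIs (-2.10 ± 0.39, SE, edgeR adjusted p = 0.0972). Mesenchymal stromal cells had 179 and 266 CPM in Ctrl against 101 and 28.9 CPM in HLU (-1.82 ± 0.56, SE, edgeR adjusted p = 0.139). The stromal class held different clusters in the groups: the cluster led by Myoc and Apod gave 742 and 194 of its 891 and 285 cells in Ctrl but 22 and 10 of 38 and 29 in HLU, where the cluster led by Rgs5 and Fabp4 gave 16 and 17. Tnfaip6 in the Myoc cluster was at 145 and 342 CPM in Ctrl and 253 and 144 CPM in HLU without TMM scaling, which overlapped, so the stromal difference was not seen within the main Ctrl cluster. In the Rgs5 cluster both HLU libraries were lower, but with 10 and 10 UMIs in Ctrl and 0 and 2 in HLU. In B cells, T cells and megakaryocytes 0 to 4 UMIs were seen per library, and no comparison could be made. Transcripts of skeletal cells found in other classes were also less common in HLU: 10 of them made up 0.0875% and 0.127% of monocyte UMIs in Ctrl and 0.00168% and 0.000461% in HLU. The dissociation genes were also lower in HLU in monocytes, stage I and stage II neutrophils, with the shares given for Zfp36 and Ptgs2. The part of these transcripts and genes in the Tnfaip6 level of monocytes and neutrophils was not tested.

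Ptgs2 encodes cyclooxygenase-2, the inducible enzyme of prostaglandin synthesis. In monocytes it was measured at 863 and 958 CPM in Ctrl and at 370 and 558 CPM in HLU, so both HLU libraries were lower and HLU replicate 1 was lowest (a log2 fold change of -0.97 ± 0.34, SE, edgeR adjusted p = 0.793). Without HLU replicate 2 the log2 fold change was -1.27. Ptgs2 in stage II neutrophils was at 201 and 285 CPM in Ctrl and at 111 and 20.6 CPM in HLU (-1.89 ± 0.77, SE, edgeR adjusted p = 0.502), and in stage I neutrophils at 18.5 and 31.9 CPM in Ctrl and at 8.79 and 2.45 CPM in HLU (-2.17 ± 0.60, SE, edgeR adjusted p = 0.236). Without HLU replicate 2 the log2 fold changes were -1.10 and -1.57, and without HLU replicate 1 they were -3.56 and -3.36. Both HLU libraries were lower in 3 of 3 stage II clusters and in 4 of 5 stage I clusters. Neutrophil progenitors had 9.95 and 12.8 CPM in Ctrl and 8.79 and 2.93 CPM in HLU (-1.01 ± 0.59, SE, edgeR adjusted p = 0.831). The dissociation genes were lower in HLU in the same classes, at 0.463% and 0.248% of stage I UMIs in Ctrl against 0.167% and 0.0627% in HLU, and at 0.233% and 0.28% of monocyte UMIs against 0.22% and 0.174%. Their part in the Ptgs2 level was not tested.

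**Figure D3:**
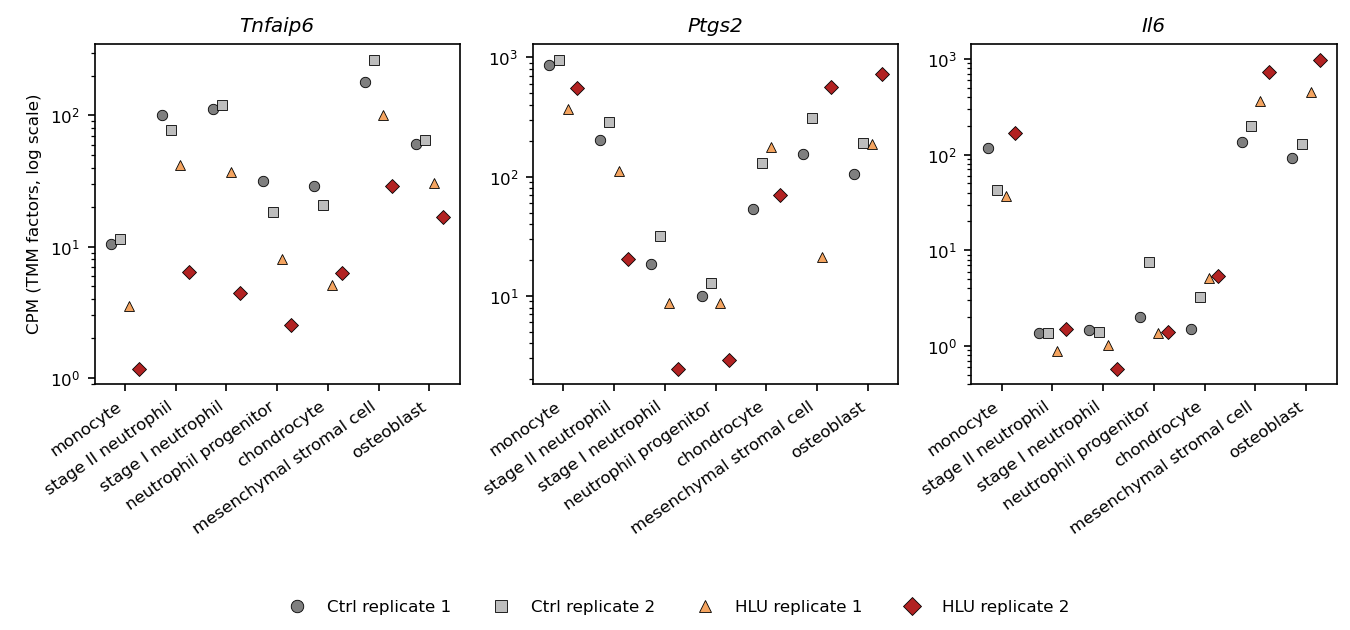
Levels of Tnfaip6, Ptgs2 and Il6 in CPM (log axis) by library in 7 cell classes, with each point 1 library. Both HLU libraries lie below both Ctrl libraries for Tnfaip6 in all 7 classes, which come from the same 4 libraries. They lie above them for Il6 in the skeletal classes. In mesenchymal stromal cells, whose clusters differ in share between the groups, neither separation was seen within the cluster led by Myoc.

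Il6, the inflammatory cytokine that NF-kB and IκBζ switch on, came mainly from cells of the skeletal lineage in Ctrl bones: osteoblasts gave 47.3% and 50.9% of its UMIs there and mesenchymal stromal cells 31% and 23.6%. In osteoblasts it was measured at 92.5 and 130 CPM in Ctrl and at 454 and 985 CPM in HLU. Both HLU libraries were well above both Ctrl libraries, in 41 and 56 cells against 715 and 557. Markers of other classes differed there too: the 6 mesenchymal stromal markers made up 0.164% and 0.216% of osteoblast UMIs in Ctrl, against 0.669% and 0.553% in HLU, and the 10 skeletal transcripts 5.85% and 5.45%, against 1.64% and 1.16%. Their part in the Il6 level was not tested. Without integration no cluster of any library was named osteoblast, so the osteoblast comparison could not be repeated in that setting. The log2 fold change was 2.70 ± 0.46 (SE), just short of the threshold (edgeR adjusted p = 0.0575), and it was 2.01 without HLU replicate 2 and 3.15 without HLU replicate 1, in fits with 1 HLU library in which 7.79% and 14.7% of all genes passed. Mesenchymal stromal cells showed the same order at 134 and 199 CPM in Ctrl and 361 and 739 CPM in HLU (1.73 ± 0.47, SE, edgeR adjusted p = 0.108), and chondrocytes did at 1.49 and 3.27 CPM in Ctrl and 5.11 and 5.37 CPM in HLU, the latter from 4 and 6 UMIs (1.14 ± 0.67, SE, edgeR adjusted p = 0.436). Within the stromal clusters Il6 overlapped between the groups: without TMM scaling it was at 40.1 and 136 CPM in Ctrl and 66.5 and 28.9 CPM in HLU in the cluster led by Myoc, and at 884 and 599 CPM in Ctrl and 711 and 1112 CPM in HLU in the cluster led by Rgs5. The class level was thus higher in HLU while the share of the Il6-rich cluster was larger, and 5 endothelial markers made up 0.00313% and 0.0178% of the stromal UMIs in Ctrl, against 0.109% and 0.12% in HLU. Of the UMIs of HLU replicate 2, monocytes gave 53% of Il6 and osteoblasts 22%.

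In monocytes Il6 did not separate the groups, with 117 and 42.3 CPM in Ctrl and 36.9 and 166 CPM in HLU (a log2 fold change of 0.37 ± 0.79, SE, edgeR adjusted p = 0.918). The log2 fold change lay on either side of 0 when an HLU library was left out, at -1.04 without HLU replicate 2 and at 1.11 without HLU replicate 1. In stage I neutrophils 8 to 13 Il6 UMIs per library gave 1.46 and 1.41 CPM in Ctrl and 1.01 and 0.577 CPM in HLU (-0.85 ± 0.59, SE, edgeR adjusted p = 0.622). Stage II neutrophils held 3 to 12 Il6 UMIs per library, neutrophil progenitors 5 to 31, B cells 0 to 10, T cells 0 to 3 and megakaryocytes 0 to 1, and Il6 was not tested in these classes.

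The other members were less uniform in skeletal cells. In osteoblasts 3 of 8 members were higher in both HLU libraries (25.8% of all genes were) and 1 was lower (29.2%), in mesenchymal stromal cells 3 of 9 were higher (23.9%) and 2 lower (28.4%), and in chondrocytes 1 of 9 was higher (22.8%) and 2 lower (28.3%). The members' median log2 fold changes were 0.27, 0.35 and 0.43, beside -0.01, -0.02 and -0.04 over all genes. Tnfaip3 was at 24.5 and 32.1 CPM in Ctrl osteoblasts and at 32.4 and 80.3 CPM in HLU (1.04 ± 0.42, SE, edgeR adjusted p = 0.232), a separation that HLU replicate 1 reached by less than 1 CPM, and the log2 fold change without HLU replicate 2 was 0.17. In mesenchymal stromal cells Tnfaip3 was at 89.2 and 81.1 CPM in Ctrl and at 128 and 132 CPM in HLU, where the HLU libraries lay close together (0.61 ± 0.33, SE, edgeR adjusted p = 0.373), but it overlapped in both stromal clusters with at least 10 cells in each library.

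Zfp36 was higher in both HLU libraries in osteoblasts, at 95.7 and 108 CPM in Ctrl and 142 and 121 CPM in HLU (a log2 fold change of 0.37 ± 0.23, SE, edgeR adjusted p = 0.399). It was lower in both in mesenchymal stromal cells, at 420 and 448 CPM in Ctrl and 361 and 326 CPM in HLU (-0.34 ± 0.37, SE, edgeR adjusted p = 0.667), and in chondrocytes, at 117 and 144 CPM in Ctrl and 109 and 85.0 CPM in HLU (-0.43 ± 0.28, SE, edgeR adjusted p = 0.474). Within clusters Zfp36 was lower in both HLU libraries in 0 of the 2 stromal and 0 of the 2 chondrocyte clusters, and higher in both in 1 of each. Nfkbia, Nfkbiz, Ptgs2 and Tnfaip2 overlapped between the groups in all 3 skeletal classes. Ptgs2 in osteoblasts was at 106 and 192 CPM in Ctrl and 187 and 723 CPM in HLU (1.62 ± 0.67, SE, edgeR adjusted p = 0.239). Without TMM scaling it was higher in both HLU libraries in the 1 osteoblast cluster. Of the 2 chondrocyte clusters Ptgs2 was higher in 1 and lower in 1, and of the 2 stromal clusters it was lower in 1 and overlapped in 1. HLU replicate 1 had the lowest Nfkbia level of the 4 libraries in each skeletal class, 301, 659 and 194 CPM in osteoblasts, mesenchymal stromal cells and chondrocytes, against 663 to 1714 CPM in the other libraries.

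Tnf itself was rare in skeletal cells. Mesenchymal stromal cells held 2 and 6 Tnf UMIs in Ctrl and 2 and 21 in HLU, which gave 0.585 and 3.14 CPM against 10.6 and 86.7 CPM (a log2 fold change of 4.95 ± 1.01, SE, edgeR adjusted p = 0.056). All 21 UMIs of HLU replicate 2 came from the 17 cells of the cluster led by Rgs5, and the 10 cells of the cluster led by Myoc, the main one in Ctrl, held 0, which allows up to 86.7 CPM. Osteoblasts held 8, 8, 1 and 22 Tnf UMIs in the same order and did not pass the filter, and chondrocytes had 0.974 and 8.89 CPM in Ctrl and 6.39 and 34.0 CPM in HLU, which overlapped. The 6 monocyte markers made up 0.0374% and 0.0413% of the UMIs of mesenchymal stromal cells in Ctrl, against 0.0146% and 0.0443% in HLU, and in osteoblasts 0.0162% and 0.0132% in Ctrl, against 0.0304% and 0.0525% in HLU. The 7 neutrophil transcripts made up 0.295% and 0.668% in Ctrl mesenchymal stromal cells and 2.56% and 1.34% in HLU. The part of such blood cell RNA in the Tnf level of skeletal cells was not tested.

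In lymphoid cells and megakaryocytes the members gave no separation upwards: 0 of 6 in B cells, 0 of 4 in T cells and 0 of 5 in megakaryocytes were higher in both HLU libraries, beside 17.7%, 17.2% and 19.2% of all genes. Lower in both were Nfkbia in B cells, at 416 and 469 CPM in Ctrl and 323 and 389 CPM in HLU, Nfkbia in T cells, at 293 and 555 CPM in Ctrl and 260 and 195 CPM in HLU, and Zfp36 in megakaryocytes, at 85.2 and 187 CPM in Ctrl and 68.5 and 80.8 CPM in HLU. That was 1 member in each class, beside 18.5%, 17.8% and 19.4% of all genes. Tnfaip3 in T cells overlapped at 434 and 517 CPM in Ctrl and 644 and 373 CPM in HLU.

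Whether Tnf comes with its feedback genes was also asked within libraries, by comparing cells with and without a Tnf UMI after thinning each cell to 2000 UMIs. Cells of 1 library are not replicates, so the comparison is the ratio per library and the number of libraries that agree in direction. In stage II neutrophils the Tnf-positive cells, 20 and 53 in Ctrl and 61 and 424 in HLU, held more Nfkbia in each library, by ratios of 4.91 and 3.53 in Ctrl and 3.21 and 1.53 in HLU. Tnfaip3 was also higher in each, by ratios of 5.54 and 4.95 in Ctrl and 3.70 and 1.82 in HLU. So were Nfkbiz, by 2.62, 1.57, 2.26 and 1.64, and Tnfaip2, by 2.23, 2.13, 1.79 and 1.25 in the same order. These were 4 of the 7 members with enough UMIs, beside 6.46% of all genes that were higher in 4 of 4 libraries. Zfp36, at ratios of 0.824, 1.01, 1.22 and 1.18, Ptgs2 and Tnfaip6 were not higher in all 4. With 1000 UMIs per cell Zfp36 and Ptgs2 were higher in all 4 and Tnfaip2 was not, and Zfp36 joined the 4 without integration and with doublets kept. Of 6 members in stage I neutrophils 2, Tnfaip3 and Nfkbia, were higher in all 4 libraries, beside 5.59% of all genes. In stage II cells, for Nfkbia, Tnfaip3 and Tnfaip2, the ratio was smallest in HLU replicate 2, the library with the most Tnf-positive cells. Stage II cells were pooled over clusters that differ in Tnf (CPM without TMM scaling). The one led by Ccrl2 and Cyp4f18 had 48.1 and 80.1 CPM in Ctrl and 40.3 and 167 CPM in HLU. The one led by Ccl6 and Cxcr2 had 30.9 and 23.8 CPM in Ctrl and 23.2 and 137 CPM in HLU. The one led by Stfa2 and BC100530 had 33.6 and 26.3 CPM in Ctrl and 23.9 and 96.8 CPM in HLU. The part of such differences between clusters in the ratios was not tested.

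In monocytes, with 15 and 16 Tnf-positive cells in Ctrl and 37 and 273 in HLU, only Tnfaip3 was higher in all 4 libraries, 1 of 8 members beside 6.05% of all genes, by ratios of 4.65 and 1.47 in Ctrl, against 2.17 and 1.47 in HLU. The Ctrl ratios rest on 9 and 5 Tnfaip3 UMIs in the Tnf-positive cells. Nfkbia was not raised in the Tnf-positive monocytes of Ctrl, at ratios of 0.817 and 0.792, and was higher in those of HLU, at 2.05 and 1.19. Ptgs2 ratios were 2.13 and 0.817 in Ctrl and 4.25 and 1.65 in HLU. This result for Tnfaip3 was lost with doublets kept, where Tnfaip2 and Nfkbia were the members higher in all 4.

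**Figure D4:**
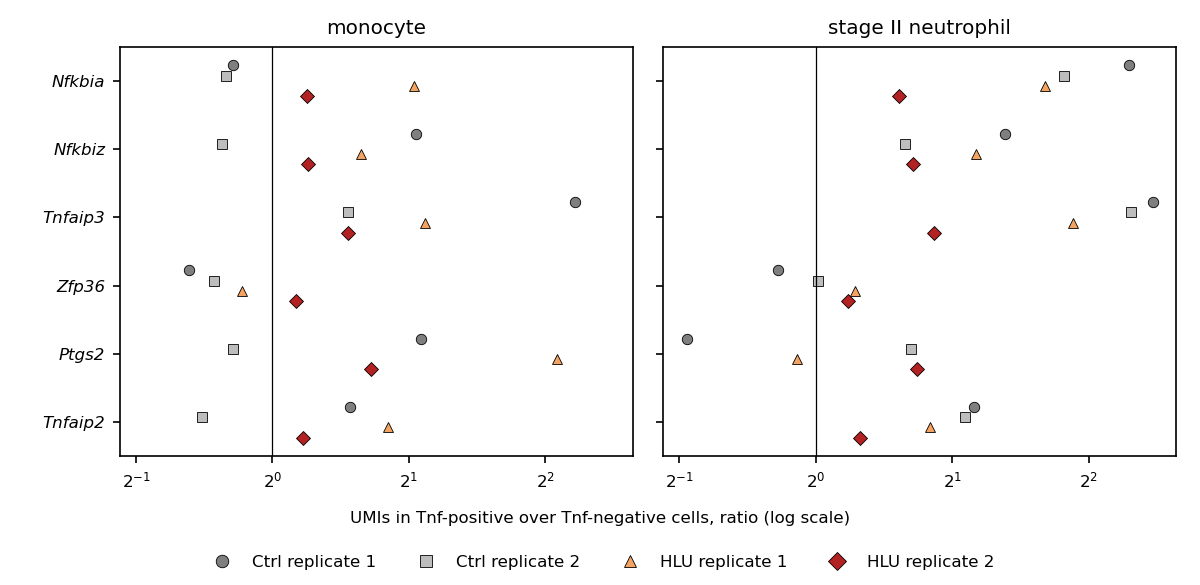
Ratio of summed UMIs between Tnf-positive and Tnf-negative cells of the same library, for 6 genes in monocytes and stage II neutrophils after thinning to 2000 UMIs; each point is 1 library and the line marks a ratio of 1. In stage II neutrophils all 4 points of Nfkbia, Tnfaip3, Nfkbiz and Tnfaip2 lie above 1, and in monocytes only those of Tnfaip3 do.

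Of 43 other genes of TNF signalling and NF-kB control (receptors, adaptors, kinases, NF-kB subunits, further inhibitors and known targets), 34 to 43 were tested per class and 0 passed edgeR's threshold in either direction in any class. At an unadjusted p under 0.05, 2 passed in monocytes, 2 in stage II neutrophils, 3 in stage I neutrophils and 12 in neutrophil progenitors, of 43, 42, 41 and 42 tested, where 5.28%, 9.83%, 10.4% and 4.83% of all genes did. In the skeletal classes 7 of 40 passed in osteoblasts, 10 of 39 in mesenchymal stromal cells and 11 of 42 in chondrocytes, beside 21.7%, 18.9% and 17.1% of all genes, and in the others 6 of 43 in B cells, 5 of 38 in T cells and 3 of 34 in megakaryocytes, beside 5.21%, 5.22% and 7.90%. DESeq2 called 4 in chondrocytes, 4 in mesenchymal stromal cells, 2 in osteoblasts, 2 in B cells, 1 in neutrophil progenitors and 0 in the other classes, beside 4.08%, 3.84%, 5.55%, 0.683% and 1.07% of all genes with an adjusted p. In monocytes 3 were higher and 10 lower in both HLU libraries, in stage II neutrophils 4 were higher and 7 lower, in stage I neutrophils 4 and 11, and in neutrophil progenitors 17 and 11. Among all genes the shares higher and lower were 17.5% and 20.4%, 21.0% and 23.4%, 22.8% and 21.2%, and 20.2% and 17.0% in the same order, so the stage II counts were not above the background. Their median log2 fold changes in these classes were -0.01, 0.12, 0.07 and 0.25.

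In monocytes the largest separated differences upwards were Sod2, a mitochondrial superoxide dismutase induced by NF-kB, at 1291 and 1182 CPM in Ctrl and 1310 and 4585 CPM in HLU, and Nfkb2, which encodes the p100 subunit, at 49.8 and 49.1 CPM in Ctrl and 50.7 and 124 CPM in HLU. In both genes HLU replicate 1 was hardly above Ctrl. Downwards they were Cd83, a surface protein of activated cells, at 5.79 and 9.17 CPM in Ctrl and 3.74 and 1.43 CPM in HLU, and Ier3, an early response gene, at 1220 and 1290 CPM in Ctrl and 664 and 871 CPM in HLU.

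In stage II neutrophils Bcl2a1d, a survival gene of the Bcl-2 family whose near-identical copies can share reads, was at 0.451 and 1.92 CPM in Ctrl and 2.11 and 10.2 CPM in HLU, and Ripk1, the kinase recruited to the TNF receptor, was at 28.0 and 35.9 CPM in Ctrl and 49.6 and 57.1 CPM in HLU. The Bcl2a1d values in Ctrl rest on few UMIs, since 3 UMIs make 1.35 and 0.821 CPM in Ctrl replicates 1 and 2. For this gene HLU replicate 1 was hardly above Ctrl replicate 2. Lower were Zfp36l2, a relative of Zfp36, at 663 and 964 CPM in Ctrl and 538 and 88.5 CPM in HLU, and Birc2, a ubiquitin ligase of the receptor complex, at 92.9 and 71.2 CPM in Ctrl and 55.4 and 18.8 CPM in HLU. Ripk1 was the gene of these 4 in which both HLU libraries lay close together. In stage I neutrophils Nfkbie was higher at 3.47 and 4.10 CPM in Ctrl and 6.07 and 7.71 CPM in HLU, as was Ripk1 at 33.7 and 34.9 CPM against 37.5 and 50.1 CPM. Lower there were Traf1, at 7.32 and 7.77 CPM against 1.63 and 4.40 CPM, and the adhesion gene Icam1, at 15.2 and 14.3 CPM against 3.11 and 10.5 CPM. In neutrophil progenitors Bcl2a1d and Bcl2a1b had the largest separated differences upwards (log2 fold changes 2.55 and 2.44) and Gadd45b and Ccl4 downwards (-1.03 and -0.96).

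In osteoblasts Icam1 was at 472 and 535 CPM in Ctrl and at 23.4 and 86.3 CPM in HLU (a log2 fold change of -3.16 ± 0.59, SE, edgeR adjusted p = 0.0692). This known NF-kB target thus lay far lower in the class in which Il6 lay far higher, and the marker shares given with Il6 belong to that class. Whether the same single cells held both differences was not tested. Birc2 was the next lower (-1.20). The cytokine gene Il1b and the chemokine gene Ccl4, which are typical of blood cells, had the largest differences upwards in osteoblasts (4.27 and 1.54), mesenchymal stromal cells (3.98 and 4.18) and chondrocytes (4.30 and 3.76), where the part of blood cell RNA was not tested. Lower in mesenchymal stromal cells were Tnip2 and Otulin (-1.05 and -0.86) and in chondrocytes Cd83 and Ier3 (-3.92 and -2.0). In B cells Nfkb2 and Map3k7 were higher (0.69 and 0.63) and Ccl4 and Ier3 lower (-2.51 and -2.16). T cells had Ripk1 and Tax1bp1 higher (0.90 and 0.84) and Gadd45b and Otulin lower (-1.39 and -1.36). Megakaryocytes had Il1b and Tax1bp1 higher (1.5 and 0.76) and Icam1 and Gadd45b lower (-2.31 and -1.73).

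Over the 40 sums of 10 classes and 4 libraries, the genes whose log2 CPM was most like that of Tnf, among 8152 genes with a mean of at least 10 CPM, were Pirb and Siglece (Pearson r = 0.88 each) and Fcer1g, Lrrc25 and Mefv (0.87 each). These are genes of myeloid cells: Pirb and Siglece encode inhibitory receptors, Fcer1g the signalling chain of Fc receptors and Mefv pyrin. None of them was a member. The members' own correlations with Tnf were 0.52 for Tnfaip2, 0.49 for Tnip3, 0.46 for Nfkbia, 0.35 for Nfkbiz, 0.26 for Ptgs2, 0.23 for Zfp36, 0.12 for Tnfaip3, 0.05 for Il6 and -0.01 for Tnfaip6. The sums share libraries, depths and the difference between blood and skeletal classes, so these values only describe where the genes are found.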

How the data were processed

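Per the submitters' processing notes, the authors made the UMI counts with Cell Ranger 6.0.0 on mm10 and used Seurat 4.1.0, and the values they deposited are unnormalized counts of each gene in each barcode. From these counts, barcodes with 1000 to 40000 UMIs and at most 10% mitochondrial UMIs were kept. The 431 to 720 barcodes per library with the highest Scrublet scores (scanpy 1.11.5) were taken as putative doublets. Their number was set by an expected rate. They took part in integration and clustering and were left out of cluster naming and of the sums. The alternative with doublets kept therefore used the same clusters. Without the putative doublets, kept barcodes held a median of 3751.5 to 6178 UMIs.

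Libraries were integrated with Seurat 5.3.0 (R 4.3.3) on 2000 variable genes without the 10 members, and clustered on 50 principal components at resolution 1. Naming a cluster took 3 markers of 1 type that were present in 10% of the cells, had a log2 fold change of 1 or more and averaged 1.5 or more over the top markers. A cluster also stayed unnamed where its 10 leading genes held at least as many markers of another type. The clusters were already known when these limits were chosen.

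UMIs were summed per library and class and tested with edgeR 4.0.16 (TMM factors, filterByExpr, quasi-likelihood test, Benjamini-Hochberg adjustment over all genes of the class, threshold 0.05). This replaces the rank sum test over cells in the study's methods, since libraries are the replicates. DESeq2 1.42.0 served as an alternative. The test was tried on simulated counts. Figures were drawn with Python 3.11.15 and matplotlib 3.10.9.

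The members, the gene lists and the tests were chosen with earlier results of these data known. The text names all 10 members, the pathway genes with an adjusted p under 0.05 or otherwise the 2 largest differences in each direction per class among genes whose groups did not overlap, and the 5 genes most like Tnf. The alternatives were DESeq2, no filter on low counts, each library left out in turn, the replicate number as a block, no integration, resolution 0.5, doublets kept, haemoglobin UMIs of at most 0.2%, sums without skeletal and neutrophil transcripts, and thinning to 1000 UMIs. Without integration, osteoblasts, mesenchymal stromal cells and megakaryocytes could not be compared, since not every library held at least 20 cells under the name. Their results were therefore not checked in that setting. Megakaryocytes could not be compared at resolution 0.5 either.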

Additional observations from a re-analysis of the deposited data

Results flagged for a closer look

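Some members lay above both Ctrl libraries in the HLU libraries of 1 cell class and below both in those of another, and these differences between classes were not tested. Between the log2 fold changes of osteoblasts and stage I neutrophils the difference was 3.55 for Il6, with few Il6 UMIs in the neutrophils, and 1.56 for Tnfaip3, whose groups overlapped in each of the 5 stage I clusters. For Nfkbiz the difference between neutrophil progenitors and stage I neutrophils was 0.67, and for Zfp36 that between osteoblasts and neutrophil progenitors was 0.83.

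Tnf was above both Ctrl libraries in both HLU libraries in 3 clusters that stayed unnamed and entered no comparison. Levels of these and the other unnamed clusters are CPM without TMM scaling. The ratio of the HLU mean to the Ctrl mean was 2.21 in the cluster led by Retnlg and Gpr27, at 23.0 and 23.3 CPM in Ctrl and 26.7 and 75.5 CPM in HLU. In the cluster led by Cd7 and Ccr9 it was 3.8, at 35.9 and 18.7 CPM in Ctrl and 52.6 and 155 CPM in HLU. That cluster was nearest to monocytes, with 6 monocyte markers raised, and held 44 and 81 cells in Ctrl and 135 and 318 in HLU. It stayed unnamed because its 10 leading genes held at least as many markers of another type, so its cells are not in the monocyte class. In the cluster led by Bcl2a1d and Mir155hg the ratio was 2.94, but that value rests on 1 and 11 Tnf UMIs in Ctrl and 9 and 3 in HLU. In the unnamed cluster led by Clec4n and Pdcd1lg2, with 41 and 55 Tnf UMIs in Ctrl and 73 and 535 in HLU, the groups overlapped at 34.2 and 74.7 CPM in Ctrl and 38.5 and 351 CPM in HLU. They also overlapped in the one led by Igfbp4 and Pam, at 0 and 12.9 CPM in Ctrl and 12.5 and 96.3 CPM in HLU.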

How the results depend on the processing

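The 48 log2 fold changes followed here were those of all members tested in monocytes, stage I and stage II neutrophils and neutrophil progenitors. From the skeletal classes they held only members whose groups did not overlap, and none came from B cells, T cells or megakaryocytes. They are thus not a view of all members in all classes. Of 383 alternative values of these 48 log2 fold changes with no library left out, 355 kept their direction and their side of the threshold, 25 crossed it in the same direction, and 3 changed sign: Nfkbia in neutrophil progenitors without the filter (0.05), and Nfkbiz without integration in neutrophil progenitors (-0.15) and stage II neutrophils (0.01). Leaving out HLU replicate 2 turned 12 of 47, and the other libraries 2 to 4 each. The ranges with 1 library left out, for values that changed sign, were in monocytes -1.04 to 1.31 (Il6), -0.17 to 0.25 (Nfkbiz), -0.27 to 0.72 (Tnfaip3) and -0.22 to 0.67 (Zfp36), in neutrophil progenitors -0.12 to 0.0 (Nfkbia), -0.43 to 0.77 (Tnf), -0.35 to 0.79 (Tnfaip2), -0.2 to 0.5 (Tnfaip3) and -0.37 to 1.16 (Tnip3), in stage I neutrophils -0.37 to 1.05 (Nfkbia) and -0.21 to 1.17 (Tnf), and in stage II neutrophils -0.39 to 1.09 (Nfkbia), -0.65 to 2.12 (Tnf), -0.25 to 0.59 (Tnfaip3) and -0.78 to 0.0 (Zfp36).

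The count of members called was 0 in every class. Without the filter on low counts it was 6 in osteoblasts, 3 each in mesenchymal stromal cells and stage II neutrophils, 2 each in monocytes and stage I neutrophils, and 1 each in chondrocytes, megakaryocytes and neutrophil progenitors, beside 1.35% to 10.7% of all genes (10.7% in osteoblasts). With DESeq2 it was 3 in osteoblasts and 1 each in chondrocytes, mesenchymal stromal cells, neutrophil progenitors and stage I neutrophils, beside 1.07% to 5.55% of genes. At resolution 0.5 it was 3 in B cells (14.5% of genes) and 1 in osteoblasts (2.45%). With 1 library left out it reached from 0 to 1 in B cells, chondrocytes and megakaryocytes, 0 to 3 in T cells, 0 to 4 in monocytes and neutrophil progenitors, 0 to 6 in stage I neutrophils, and 0 to 7 in osteoblasts and stage II neutrophils. These highest counts came without HLU replicate 1, and in chondrocytes and megakaryocytes also without Ctrl replicate 2. Such fits have 1 HLU library, take the spread from the Ctrl pair and assume that the lone library varies like it, and 14.3%, 2.30%, 6.21%, 6.89%, 31.1%, 26.4%, 31.3%, 14.7% and 46.5% of all genes passed in B cells, chondrocytes, megakaryocytes, T cells, monocytes, neutrophil progenitors, stage I neutrophils, osteoblasts and stage II neutrophils. The cause of these moves was not tested.

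All genes called ranged over the alternatives from 120 to 3935 in stage II neutrophils (213 in the comparison as reported), 46 to 3144 in stage I neutrophils (173), 0 to 3057 in monocytes (4), 0 to 2700 in neutrophil progenitors (26), 17 to 1852 in osteoblasts (129), 0 to 1038 in mesenchymal stromal cells (129), 0 to 487 in chondrocytes (11), 34 to 1454 in B cells (55), 9 to 446 in T cells (15) and 16 to 369 in megakaryocytes (21). In the 4 myeloid classes the highest count came without HLU replicate 1. The count of members higher in Tnf-positive monocytes of all 4 libraries, 1 as reported, was 2 with 1000 UMIs per cell, 3 without integration and 2 with doublets kept, where Tnfaip3, the member reported, was not among them. In stage II neutrophils it was 4 as reported and 5 under each of these.

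Replicate numbers are shared by the groups, but samples with the same number did not deviate together (correlations of -0.09 to 0.18). With so few libraries this cannot tell whether they share a day or batch, and the labels do not say what the numbers mark. With the number as a replicate block, 1 member each was called in mesenchymal stromal cells (Tnf), neutrophil progenitors (Tnfaip6), osteoblasts (Il6) and stage I neutrophils (Tnfaip6). Among all genes 4.56%, 1.45%, 2.67% and 2.17% were called in that setting, in the same order. As reported, without the block, these shares were 1.52%, 0.259%, 1.17% and 1.73%. The calculation at Ctrl class shares the stage I comparison without the cluster led by Ldhc and the levels within single clusters were chosen after seeing the data.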
